A study of Mus musculus with 6 samples.

Results

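Collagen chain genes were compared in hippocampal RNA of 3 wild-type (WT) and 3 transgenic (TG) mice. The members are the protein-coding rows of the gene table whose symbol has the form of a collagen alpha chain (Col, the type, a, the chain), which gave 44 genes of the 54532 in the table. They were divided into 11 fibrillar, 8 basement membrane and 25 other collagens. TG mice carried the G82R and L85P changes of Slc1a2, which encodes the astrocytic glutamate transporter GLT-1, introduced by CRISPR/Cas9 knock-in on the C57BL/6N background, and the WT mice of the study were littermates. The line was bred from founders through heterozygous offspring, and the zygosity, age and sex of the sequenced mice are not given per library in the sources used here. The mice are numbered from 1 in each genotype, giving the libraries WT1, WT2, WT3, TG1, TG2 and TG3, and values are given in that order. The labels name no drug treatment of either group. The mice of the study went through behavioural tests, fear conditioning with electrical shocks among them, and whether the sequenced mice had been tested is not given in the sources used here. The labels do not say whether equal numbers in the 2 groups mark shared litters.

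Collagens are extracellular matrix proteins whose alpha chains wind around each other into helical trimers, either of identical chains or of chains from several genes. Fibrillar types (I, II, III, V, XI, XXIV and XXVII) build cable-like fibres, type IV builds the sheet under endothelial and epithelial cells, and the remaining types decorate fibres, form short networks or microfilaments, or stay anchored in the cell membrane. In the brain, fibrillar collagens belong mainly to the meninges and to the fibroblasts around larger vessels, type IV to the vascular basement membrane, and several transmembrane collagens to neurons.

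The authors deposited FPKM, the reads of a gene per kilobase of gene length and normalized to the reads of the library, so levels can be compared between genes. The libraries held 16081281 to 18751057 reads on genes, and 3 reads on a gene of 1 kb correspond to an FPKM of 0.160 to 0.190. Neuronal markers of the hippocampal fields were present in all 6 libraries, with an FPKM of 9.81 to 14.4 for Prox1, a dentate gyrus factor, and of 71.5 to 91.0 for Neurod6, a pyramidal neuron factor. TG1 and TG2 stood apart from the other libraries in the markers of the choroid plexus epithelium, the secretory tissue of the ventricles. The summed FPKM of 12 such markers was 111, 82.9 and 95.5 in WT against 1338, 4184 and 92.5 in TG. All 12 markers were above every WT library in TG1 and in TG2, and 3 of 12 were in TG3. No marker was at 0 in all libraries. Of 5 markers of the ependyma, the cells that line the ventricles, Tmem212, Ccdc153 and Rarres2 had an unadjusted p under 0.05 (limma, none after adjustment), lower in TG. This is 3 of 5 against 2.78% of all genes tested. The other 2, Foxj1 and Rsph1, had log2 fold changes above 0, up to 0.33, so the list was split. The median log2 fold change of the 5 was -0.41. The summed FPKM of the 5 markers was 14.3, 12.6 and 9.62 in WT against 9.91, 16.7 and 8.57 in TG, and their part in the collagen values was not tested. The summed FPKM of 10 markers of meningeal and perivascular fibroblasts was 43.1, 18.6 and 17.0 in WT against 33.6, 28.9 and 30.9 in TG. On the log2 scale, 10, 0 and 0 of these 10 markers lay above the WT mean in WT, and 9, 3 and 9 in TG. The sum of TG2 thus does not stand for most of its markers. For this reason the values of each library are given, and the main results are also given with TG3 alone against the WT libraries. In bulk RNA, more cells of a type and more RNA per cell cannot be told apart.

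The collagen with the largest difference was Col8a1, followed by Col8a2, Col9a3 and the pair Col4a3 and Col4a4, and all 5 were high in TG1 and TG2 and near the WT level in TG3. The abundant chains of the vascular basement membrane, Col4a1 and Col4a2, and the abundant neuronal collagen Col25a1 had group means that differed by less than the SD of the WT libraries. No collagen passed an adjusted p under 0.05 with limma, fitted on log2(FPKM + 0.1) over the 20952 genes whose FPKM averaged 0.1 or more. Of the 44 collagens, 37 passed this filter. At an unadjusted p under 0.05, 2 of 37 collagens (5.41%) were higher in TG mice, against 3.13% of all genes tested, and none was lower, against 2.78%. The smallest adjusted p of a collagen was 0.786 in the same limma fit, whereas 2 genes, or 0.00955% of all genes tested, had an adjusted p under 0.05. With limma-voom on reads recovered from the FPKM, 6 collagens had an unadjusted p under 0.05, all higher in TG mice, with none left after adjustment, and over all genes 813 were higher and 490 lower. The count of 2 was 0 without WT2, WT3 or TG2, 1 without TG1 and 6 without TG3. Over all genes, those higher went from 656 to 655, 440, 454, 526 and 589 in these fits. On the log2 scale, 19, 29 and 7 of the 37 collagens lay above the WT mean in WT, and 23, 20 and 26 in TG. WT3 was thus low for most collagens, whereas 10247 of all 20952 genes lay above the WT mean in it. The log2 fold change was above 0 in 26 of 37 collagens (70.3%), against 49.6% of all genes tested, and the median log2 fold change was 0.11, against -0.0020 over all genes. By class, the median was 0.11 in 9 fibrillar, 0.30 in 8 basement membrane and 0.09 in 20 other collagens. With 1 library left out, these medians ran from -0.08 (without WT3) to 0.26 (without WT2), from 0.096 (without WT3) to 0.51 (without WT1) and from 0.0090 (without WT3) to 0.18 (without WT2). With TG3 alone against the 3 WT libraries, an alternative chosen after the values were seen in which TG3 is assumed to vary like the WT libraries, these medians were 0.23, 0.06 and 0.17.

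**Figure D1:**
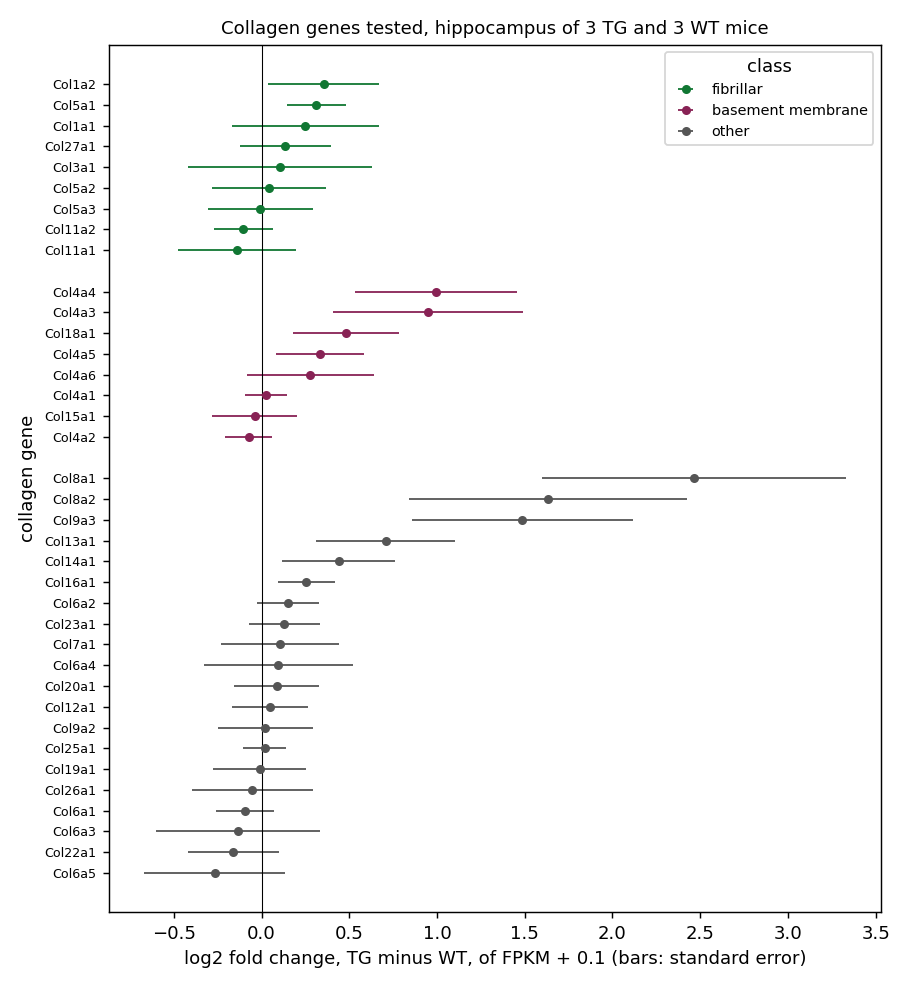
Log2 fold change (TG minus WT) of FPKM + 0.1 on the x axis for each of the 37 collagen genes tested, by class, with points for the limma estimate and bars for its standard error. Col8a1 lies farthest from 0 at 2.46, and most other collagens lie within their standard error of 0.

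Summed over all 44 genes, the collagen FPKM was 49.0, 52.7 and 40.6 in WT against 58.6, 72.6 and 50.4 in TG. The higher totals of TG1 and TG2 were carried by few genes. Col8a1, Col8a2 and Col9a3 together made up 6.18% to 6.77% of the collagen FPKM in the WT libraries, 20.0% in TG1, 38.9% in TG2 and 5.95% in TG3. Without these 3 genes, the total was 45.7, 49.2 and 38.1 in WT against 46.8, 44.3 and 47.4 in TG, so that every TG library lay within the WT range. The 3 genes were picked from these same values, so a fall of the TG1 and TG2 totals follows from the choice.

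Type VIII collagen forms short-chain hexagonal networks, best known from the membrane under the corneal endothelium and from vessel walls, and its chains are encoded by Col8a1 and Col8a2. Col8a1 (ENSMUSG00000068196, chromosome 16 from 57624258 to 57754737 on the minus strand, GRCm38) had an FPKM of 0.304, 0.119 and 0.150 in WT against 2.00, 4.77 and 0.262 in TG. TG2 was highest and TG1 second, while TG3 lay below WT1, so the groups overlapped. The log2 fold change was 2.46 (standard error 0.865, limma, unadjusted p = 0.0238, adjusted p = 0.786), on 15 to 44 reads per WT library and 670 reads in TG2. Col8a2 (ENSMUSG00000056174, chromosome 4 from 126286793 to 126314330 on the plus strand) had an FPKM of 0.855, 0.883 and 0.333 in WT against 2.76, 6.49 and 0.543 in TG. The order of the TG libraries was the same as for Col8a1, and TG3 again lay inside the WT range. Its log2 fold change was 1.63 (standard error 0.794, limma, unadjusted p = 0.0774, adjusted p = 0.788). The level of Col8a2 was 2.22 to 7.45 times that of Col8a1 in the WT libraries, 1.38 times in TG1, 1.36 times in TG2 and 2.08 times in TG3. Against the WT mean, Col8a1 was 10.5 times as high in TG1, 25.0 times in TG2 and 1.37 times in TG3, and Col8a2 was 4.0, 9.40 and 0.786 times as high. With TG3 alone against the WT libraries, the log2 fold change was 0.37 for Col8a1 and -0.21 for Col8a2. With the mean level of the choroid plexus markers as a covariate it was 0.35 and -0.27. This covariate was high in TG1 and TG2 only, so both fits are close to the same comparison, that of TG3 with WT.

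The promoters of the type VIII genes are shown because these chains of 1 network had the same order in the TG libraries. The order is not particular to them. Col9a3, Col4a3, Col4a4, Col4a5, Col6a1, Col17a1, Col18a1 and Col23a1 had it too. All 12 choroid plexus markers were higher in TG2 than in TG1. Shared control of the 2 genes was not tested. The sequences are the 250 bases before the RefSeq start (GRCm38.p6), at chr16:57754738-57754987 on the minus strand and chr4:126286544-126286793 on the plus strand, with matches to the GC box GGGCGG in capitals on either strand.
Col8a1: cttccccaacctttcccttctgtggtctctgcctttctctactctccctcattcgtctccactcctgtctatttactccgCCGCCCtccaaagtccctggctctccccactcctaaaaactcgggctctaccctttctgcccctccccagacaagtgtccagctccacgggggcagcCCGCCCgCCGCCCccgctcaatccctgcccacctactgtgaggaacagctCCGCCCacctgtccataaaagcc
Col8a2: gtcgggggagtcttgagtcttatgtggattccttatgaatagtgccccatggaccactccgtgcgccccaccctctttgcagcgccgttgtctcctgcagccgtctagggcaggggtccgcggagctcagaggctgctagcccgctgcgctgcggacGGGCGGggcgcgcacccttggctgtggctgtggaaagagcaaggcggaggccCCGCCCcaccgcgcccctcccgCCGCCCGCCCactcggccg
Both strands were searched for 4 motifs. The GC box GGGCGG occurred at 4 places in each sequence, and in Col8a2 a pair of these overlaps. The TATA box TATAAA, the CCAAT box and TAATCC, the core of the binding site of Otx factors, occurred in neither. The GC box was found in 32.7% of all 32851 promoter windows of this length and in 22 of 38 windows (57.9%) of the 35 collagen genes in the RefSeq table. TAATCC was in 6.25% of all windows and in none of the collagen windows, which says only that these letters are not in these windows. The share of G and C was 60.8% in Col8a1 and 70.0% in Col8a2.

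Type IX collagen sits on the surface of fibrils and is made of 1 chain each from Col9a1, Col9a2 and Col9a3 in cartilage. Col9a3 (ENSMUSG00000027570, chromosome 2 from 180597790 to 180622189) was the most abundant of the 3 in the TG mean, with an FPKM of 2.13, 2.57 and 2.02 in WT against 6.99, 17.0 and 2.20 in TG. The WT libraries and TG3 lay close to each other, and TG1 and TG2 lay above all of them. Its log2 fold change was 1.49 (standard error 0.631, limma, unadjusted p = 0.0493, adjusted p = 0.786). Its partner chains did not show this order. Col9a2 had an FPKM of 2.78, 1.5 and 1.55 in WT against 1.69, 1.60 and 2.50 in TG, a log2 fold change of 0.02 (standard error 0.272), with its highest values in WT1 and TG3. Col9a1 had a mean FPKM under 0.1 and was not tested, with 4 to 15 reads in the WT libraries and 2 to 8 in the TG libraries. As a result, the level of Col9a3 was 0.768 to 1.71 times that of Col9a2 in the WT libraries, 4.12 times in TG1, 10.6 times in TG2 and 0.878 times in TG3. Of the exonic bases of Col9a3, 6.07% overlap exons of Tcfl5 on the opposite strand, and the counting is not stated to use strand.

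**Figure D2:**
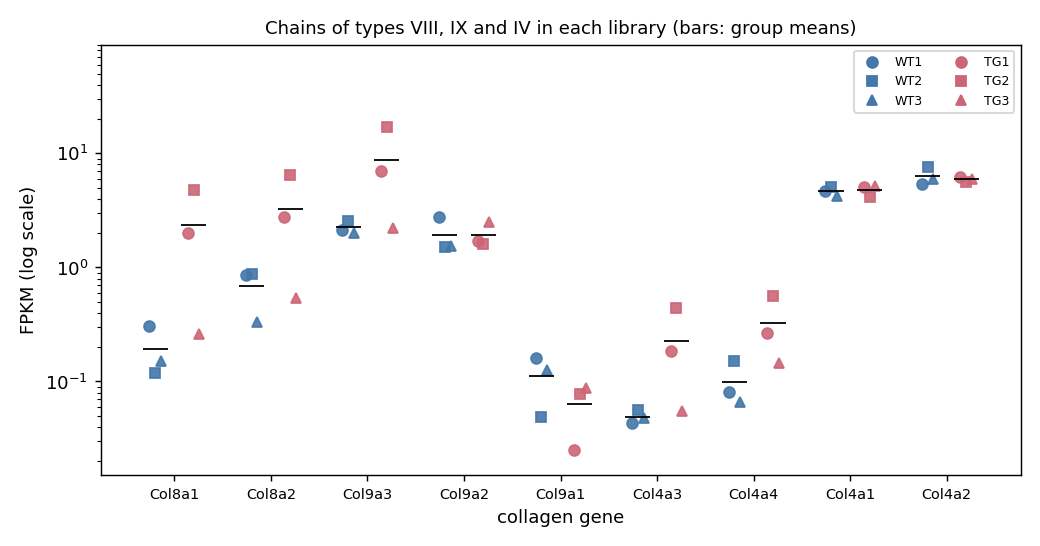
FPKM in each library on a log axis for chains of types VIII, IX and IV, with WT libraries in blue, TG libraries in red, symbols for the replicate numbers and bars for group means. Col8a1, Col8a2, Col9a3, Col4a3 and Col4a4 are highest in TG2 and second in TG1, while Col9a2, Col4a1 and Col4a2 overlap between the groups.

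Type IV collagen, the scaffold of basement membranes, is encoded by 3 pairs of genes that start next to each other and point in opposite directions. Col4a1 and Col4a2 make the common network around vessels, and Col4a3, Col4a4 and Col4a5 make the network of specialised membranes such as that of the kidney glomerulus. Col4a1 (ENSMUSG00000031502, chromosome 8 from 11198423 to 11312826) had an FPKM of 4.70, 5.13 and 4.26 in WT against 5.03, 4.16 and 5.19 in TG. Col4a2 (ENSMUSG00000031503, chromosome 8 from 11312805 to 11449287), which had the highest mean FPKM of all 44 collagens over the 6 libraries, had an FPKM of 5.34, 7.57 and 5.96 in WT against 6.21, 5.61 and 5.92 in TG. The groups overlapped for both chains, with log2 fold changes of 0.03 (standard error 0.119) and -0.07 (standard error 0.133). Their annotated first exons overlap by 22 bases, and the level of Col4a2 was 1.14 to 1.48 times that of Col4a1 in the WT libraries and 1.14 to 1.35 times in the TG libraries.

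The pair Col4a3 and Col4a4 was far less abundant and varied more between libraries. Col4a3 (ENSMUSG00000079465, chromosome 1 from 82586921 to 82722059) had an FPKM of 0.0434, 0.0559 and 0.0482 in WT against 0.184, 0.442 and 0.0556 in TG. Col4a4 (ENSMUSG00000067158, chromosome 1 from 82448423 to 82586849) had an FPKM of 0.0815, 0.152 and 0.0654 in WT against 0.268, 0.557 and 0.146 in TG. Both were highest in TG2 and second in TG1, and TG3 lay between the lowest and the highest WT library. These values rest on few reads, 8 or 9 per WT library and 79 in TG2 for Col4a3, and 13 to 26 per WT library and 106 in TG2 for Col4a4. The log2 fold change was 0.95 (standard error 0.542, limma, unadjusted p = 0.121) for Col4a3 and 0.99 (standard error 0.462, unadjusted p = 0.0673) for Col4a4. On this scale the pseudocount of 0.1 is larger than the WT level of Col4a3, and with a pseudocount of 0.01 the values were 1.60 and 1.49. With the choroid plexus markers as a covariate they were -0.0067 and 0.24. This covariate was high in TG1 and TG2 only, so that fit is close to a comparison of TG3 with WT.

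The 71 bases between the starts of Col4a4 and Col4a3 are shown because both genes are read outward from them. They lie at chr1:82586850-82586920 (GRCm38.p6) and are written on the minus strand, toward Col4a4.
Col4a3-Col4a4: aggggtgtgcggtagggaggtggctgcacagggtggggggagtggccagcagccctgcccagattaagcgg
None of the 4 motifs occurred in this stretch, of which 69.0% is G or C. The starts of the third pair, Col4a6 and Col4a5, lie 1308 bases apart on chromosome X. Col4a5 had an FPKM of 0.821, 0.691 and 0.469 in WT against 0.894, 0.972 and 0.676 in TG, and Col4a6 had 0.312, 0.179 and 0.114 in WT against 0.293, 0.238 and 0.229 in TG. The groups overlapped for both, with log2 fold changes of 0.33 (standard error 0.250) and 0.28 (standard error 0.362).

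The multiplexins Col15a1 and Col18a1 lie in the basement membrane zone and release fragments that inhibit vessel growth, endostatin in the case of Col18a1. Col18a1 had an FPKM of 1.54, 0.935 and 0.837 in WT against 1.81, 1.93 and 1.02 in TG, with TG1 and TG2 above every WT library and TG3 inside their range. Its log2 fold change was 0.48 (standard error 0.304, limma, unadjusted p = 0.155). Col15a1 had an FPKM of 0.368 to 0.580 in the 6 libraries and differed by -0.04 on the log2 scale (standard error 0.242). The median log2 fold change of 0.30 of the basement membrane class lay between Col4a6 (0.28) and Col4a5 (0.33). The most abundant chains, Col4a1 and Col4a2, had values near 0, and the least abundant, Col4a3 and Col4a4, values near 1. With a minimum mean FPKM of 1, which left 3 chains of the class, the median was 0.03, the value of Col4a1.

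The genes with high values in TG1 and TG2 were compared with the choroid plexus markers library by library. Above the WT mean, the surplus of Col8a1 was 1.81 FPKM in TG1 and 4.58 in TG2, so the surplus in TG2 was 2.53 times that in TG1. This quotient was 2.80 for Col8a2, 3.11 for Col9a3, 2.92 for Col4a3 and 2.72 for Col4a4, against 1.17 for Col18a1 and 1.33 for Col4a5. Outside this set, Col17a1, at 11.4 times the WT mean in TG1 and 22.5 times in TG2 on few reads, had a quotient of 2.06, and the collagen processing gene Pcolce had 2.01. For the 12 choroid plexus markers it ranged from 2.64 to 4.57 with a median of 3.20, and for Ttr, the thyroxine carrier that the plexus secretes in bulk, it was 3.30. Ttr itself had an FPKM of 73.0, 49.8 and 66.6 in WT against 1168, 3705 and 57.7 in TG. The part of these markers in the collagen values was not tested. The covariate was 2.99 in TG1, 4.50 in TG2 and 0.011 to 0.43 in the other libraries. These collagens were picked as high in TG1 and TG2, so a fall of their values with the covariate largely follows from the choice. Among 3 TG libraries the markers and the genotype differ together in TG1 and TG2.

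**Figure D3:**
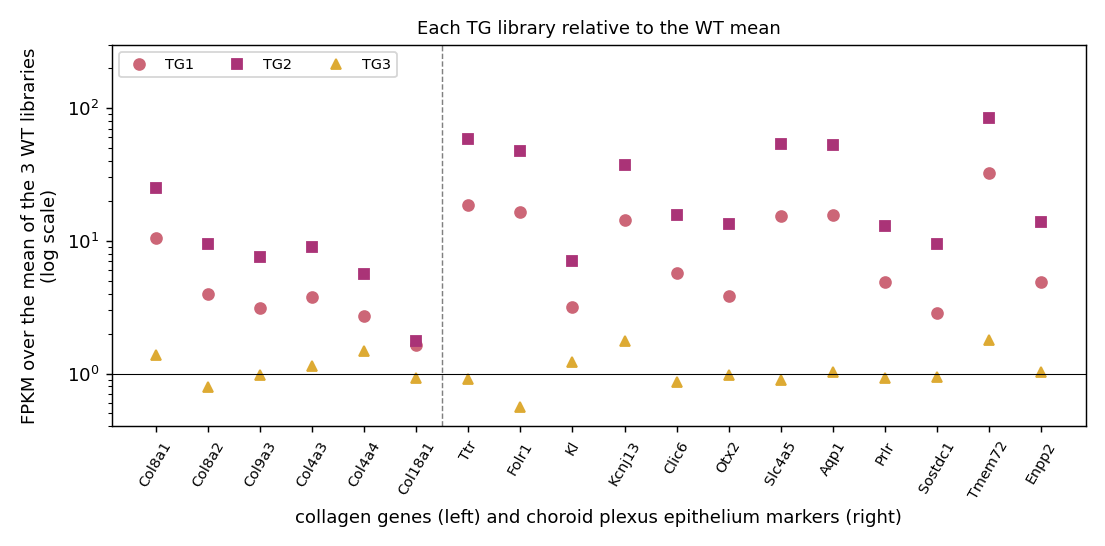
FPKM of each TG library divided by the mean of the 3 WT libraries, on a log axis, for 6 collagen genes on the left of the dashed line and 12 choroid plexus epithelium markers on the right. TG2 lies above TG1 for every gene shown, by little for Col18a1, and TG3 lies between 0.557 and 1.78.

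Fibrillar collagens varied between mice, and none passed an unadjusted p of 0.05 between the groups. Type I collagen is a trimer of chains from Col1a1 and Col1a2. Col1a1 (ENSMUSG00000001506, chromosome 11 from 94936224 to 94953042) had an FPKM of 1.67, 1.02 and 0.545 in WT against 1.53, 0.722 and 1.5 in TG. Col1a2 (ENSMUSG00000029661, chromosome 6 from 4504814 to 4541544) had an FPKM of 1.72, 0.932 and 0.765 in WT against 1.60, 1.02 and 1.68 in TG. Both were high in WT1, TG1 and TG3 and lower in WT2, WT3 and TG2, and the groups overlapped. Col3a1, whose homotrimers join type I in fibres, was high in the same libraries, with an FPKM of 0.463, 0.114 and 0.169 in WT against 0.296, 0.0966 and 0.417 in TG. Col1a2 had the largest log2 fold change above 0 of the class at 0.35 (standard error 0.316, limma, unadjusted p = 0.299), and with the mean level of the fibroblast markers as a covariate it was -0.02. For Col1a1 these values were 0.25 (standard error 0.419) and -0.20. The summed fibroblast markers were highest in WT1, as were Col1a1, Col1a2 and Col3a1, and their part in these values was not tested. In TG2, 3 of the 10 markers lay above the WT mean on the log2 scale, against 9 in TG1 and in TG3.

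Col5a1, a chain that starts and limits the width of fibres, had the smallest p of the fibrillar class. Its FPKM was 0.962, 1.16 and 1.13 in WT against 1.15, 1.40 and 1.57 in TG, and TG1 lay just below WT2. The log2 fold change was 0.31 (standard error 0.170, limma, unadjusted p = 0.107, adjusted p = 0.789), and with TG3 alone against the WT libraries it was 0.50. Exons of 2 other genes on the opposite strand overlap 2.50% of its exonic bases. Col11a2, a chain known from cartilage fibrils, was the most abundant fibrillar collagen, above the chains of type I. It had an FPKM of 2.79, 4.11 and 2.94 in WT against 2.82, 2.78 and 3.45 in TG, which is -0.10 on the log2 scale (standard error 0.170). The other tested chains, Col5a2, Col5a3, Col11a1 and Col27a1, had WT means of 0.374 to 0.495 FPKM and log2 fold changes of -0.14 to 0.14. Col2a1 and Col24a1 had mean FPKM values of 0.0984 and 0.0699 and were not tested.

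**Figure D4:**
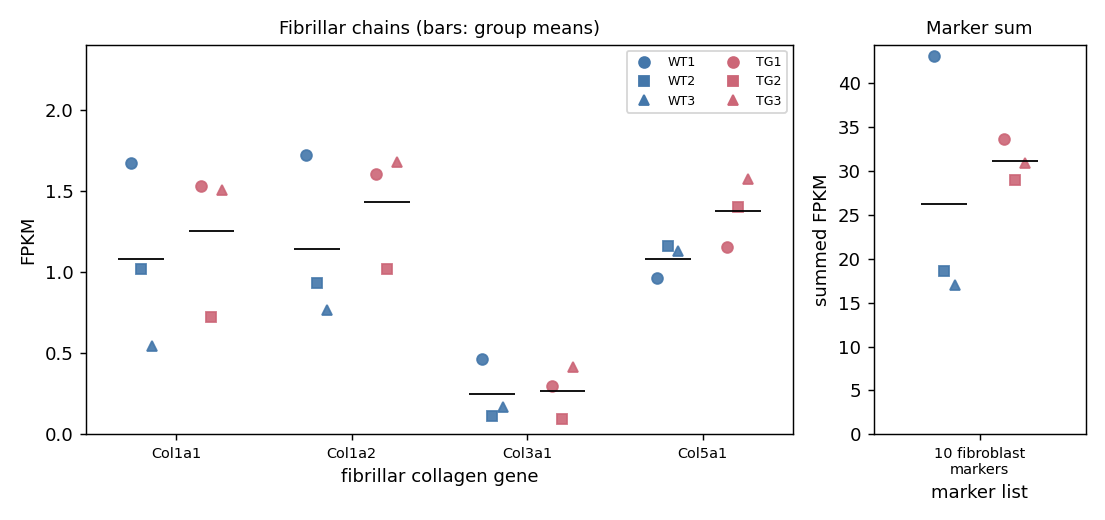
FPKM of 4 fibrillar collagen genes in each library (left) and the summed FPKM of 10 fibroblast markers (right), with WT libraries in blue, TG libraries in red, symbols for replicate numbers and bars for group means. Col1a1, Col1a2 and Col3a1 are high in WT1, TG1 and TG3 and overlap between the groups, and the marker sum runs from 17.0 in WT3 to 43.1 in WT1.

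Among the other collagens, the membrane-bound Col25a1, a neuronal collagen first found in amyloid plaques, had the highest mean FPKM over the 6 libraries, while in the TG mean Col9a3 (8.73) was above it (6.02). Its FPKM was 6.33, 6.05 and 5.38 in WT against 7.03, 5.55 and 5.5 in TG, a log2 fold change of 0.02 (standard error 0.122) on 1266 to 1516 reads. Col23a1, also membrane-bound, ranged from 1.69 to 2.82 FPKM in WT and from 2.15 to 2.86 in TG. Col19a1, a collagen of hippocampal interneurons that is known for its part in synapse formation, had 1.52, 2.05 and 1.05 in WT against 1.56, 1.15 and 1.78 in TG. The groups overlapped for all 3 genes.

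Type VI collagen forms beaded microfilaments from a chain of Col6a1, a chain of Col6a2 and a long chain such as Col6a3. Col6a1 had an FPKM of 4.17, 6.37 and 4.27 in WT against 4.59, 4.71 and 4.31 in TG, with WT2 above all others. Col6a2 had 1.14, 0.870 and 0.866 in WT against 1.11, 0.965 and 1.14 in TG. The log2 fold changes were -0.09 (standard error 0.166) and 0.15 (standard error 0.178). Col6a3, Col6a4 and Col6a5 had group means of 0.0890 to 0.298 FPKM and overlapping groups. Col6a6 was not tested, with 3 to 5 reads per WT library and 6, 15 and 22 reads in TG1 to TG3, and 3.54% of its 50-mers are shared with another gene.

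The groups did not overlap for 2 of 37 tested collagens, Col13a1 and Col14a1, both higher in TG mice, which is 5.41% against 6.35% of all genes tested, and no collagen had every TG value below every WT value, against 5.71% of all genes. Both are named after their values were seen. Col14a1, which decorates fibrils of type I, had an FPKM of 0.139, 0.150 and 0.145 in WT against 0.279, 0.207 and 0.213 in TG, a log2 fold change of 0.44 (standard error 0.322, limma, unadjusted p = 0.213) on 17 to 31 reads. Col13a1, a transmembrane collagen of cell adhesions and of the neuromuscular synapse, had 0.270, 0.255 and 0.0696 in WT against 0.302, 0.424 and 0.361 in TG, a log2 fold change of 0.71 (standard error 0.394, unadjusted p = 0.114) on 6 to 35 reads. At these depths a difference of a few reads decides whether the groups overlap. Col17a1, the transmembrane collagen of epithelial hemidesmosomes, was under the filter, with 3, 0 and 1 reads in WT against 13, 29 and 5 in TG. Without the filter on low values it had a smaller p than 0.05 before adjustment.

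The remaining collagens of the class were Col7a1, Col12a1, Col16a1, Col20a1, Col22a1 and Col26a1, with log2 fold changes of -0.16 to 0.25 and overlapping groups. Of these, Col16a1, a fibril-associated chain, had the largest difference, with an FPKM of 1.18, 1.04 and 0.934 in WT against 1.16, 1.23 and 1.42 in TG (standard error 0.163, limma, unadjusted p = 0.159). Col10a1, a marker of hypertrophic cartilage, had at most 4 reads in a library, and Col28a1 at most 11.

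Genes that make, bind or cut collagen were then compared on lists of 62 genes, of which 58 were tested. At an unadjusted p under 0.05, 10 of 58 genes (17.2%) were higher in TG mice and none was lower, against 3.13% and 2.78% of all genes tested, and none passed after adjustment with limma (smallest adjusted p = 0.786). The median log2 fold change of the 58 genes was 0.14. On the log2 scale, 42, 36 and 8 of the 58 lay above the WT mean in WT, and 45, 44 and 44 in TG, so WT3 was low here too. The count, in either direction, was 10, 7 and 4 without WT1, WT2 and WT3, and 5, 4 and 14 without TG1, TG2 and TG3. It was 0 with the choroid plexus covariate. These fits have fewer samples or 1 more term. Over all genes, those higher went from 656 to 769, 655, 440, 526, 454 and 589 without these libraries in turn, and to 327 with the covariate. Those lower went from 582 to 625, 721, 418, 375, 568 and 472, and to 372. The log2 fold changes of the 10 genes stayed above 0 with TG3 alone and with the covariate. Both fits use libraries from which the 10 genes were picked, so their sign is no separate support. The covariate, the mean log2 level of the choroid plexus markers, was 2.99 in TG1, 4.50 in TG2 and 0.011 to 0.43 in the other libraries. The 2 fits are thus close to 1 comparison, that of TG3 with WT. That of Itga11 was 0.53 in the reported fit, 0.52 with TG3 alone and 0.49 with the covariate, and that of Ddr2 was 0.52, 0.53 and 0.44. That of Pcolce was 1.19, 0.16 and 0.10.

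Of the 17 genes of synthesis and folding, 3 had an unadjusted p under 0.05, all higher in TG mice, against 3.13% of all genes tested. Serpinh1, which encodes the collagen chaperone HSP47, had an FPKM of 6.64, 4.94 and 4.79 in WT against 7.79, 8.65 and 7.12 in TG, with no overlap between the groups. Its log2 fold change was 0.53 (standard error 0.143, limma, unadjusted p = 0.0071, adjusted p = 0.786), and it was 0.39 with TG3 alone and 0.36 with the choroid plexus covariate. P3h2, which hydroxylates prolines of type IV collagen, had 0.712, 0.632 and 0.388 in WT against 1.07, 1.18 and 0.833 in TG. P4ha1, the catalytic subunit of prolyl 4-hydroxylase, had 10.7, 9.68 and 10.2 in WT against 11.7, 11.9 and 11.4 in TG, with a log2 fold change of 0.20. The groups lay apart for both. P4hb, the partner subunit of this enzyme and the most abundant gene of the list, had an FPKM of 34.6 ± 1.0 in WT against 34.9 ± 1.73 in TG (SD, n = 3 each).

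In the list of maturation and cross-linking, 1 of 13 genes was higher at an unadjusted p under 0.05, against 3.13% of all genes tested. Pcolce, which enhances the cleavage of procollagen ends, had an FPKM of 2.31, 1.04 and 0.978 in WT against 3.59, 5.76 and 1.51 in TG, so TG3 lay inside the WT range. Its log2 fold change was 1.19 (standard error 0.502, limma, unadjusted p = 0.0488), and 0.16 with TG3 alone. Bmp1, the procollagen C-proteinase and the most abundant gene of the list, had 4.99 ± 1.2 and 5.0 ± 0.406 (SD, n = 3 each).

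Of 9 receptors tested, 2 were higher at an unadjusted p under 0.05, against 3.13% of all genes tested. They were Ddr2 and Itga11, both receptors of fibrillar collagen. Ddr2 had an FPKM of 1.41, 0.916 and 0.894 in WT against 1.37, 1.72 and 1.56 in TG, and TG1 lay below WT1. Itga11 had 0.506, 0.748 and 0.531 in WT against 0.837, 0.968 and 0.885 in TG, with the groups apart. The most abundant receptor, Ddr1, had 16.9 ± 2.48 and 18.5 ± 1.66 (SD, n = 3 each), and the groups overlapped.

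The 12 basement membrane partners had log2 fold changes of 0.05 to 1.10 with a median of 0.26. At an unadjusted p under 0.05, 2 of 12 were higher, against 3.13% of all genes tested. On the log2 scale, 10, 8 and 0 of the 12 lay above the WT mean in WT, and 12, 8 and 10 in TG. Hspg2, which encodes the heparan sulfate proteoglycan perlecan, had an FPKM of 1.06, 1.13 and 0.661 in WT against 1.81, 2.01 and 1.52 in TG, and the groups lay apart. Its log2 fold change of 0.86 (standard error 0.223) had the smallest p of the pathway lists (limma, unadjusted p = 0.00577, adjusted p = 0.786), and it was 0.66 with TG3 alone and 0.62 with the choroid plexus covariate. Lamb2, a laminin chain, had 6.95, 5.38 and 5.31 in WT against 7.98, 6.92 and 6.87 in TG, and TG2 and TG3 lay just below WT1. Agrn, the most abundant partner, had 19.5 ± 2.99 and 20.4 ± 1.14 (SD, n = 3 each).

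Among 7 tested genes of collagen degradation, 2 were higher at an unadjusted p under 0.05, against 3.13% of all genes tested. These were the metalloproteinase inhibitors Timp1 and Timp3. Timp3 had an FPKM of 8.67, 6.58 and 5.80 in WT against 10.5, 10.1 and 8.91 in TG, a log2 fold change of 0.50 (standard error 0.150, limma, unadjusted p = 0.012). Timp1, a gene often raised in reactive astrocytes, had 0.305, 0.488 and 0.361 in WT against 0.783, 0.754 and 0.499 in TG. The groups lay apart for both, on 5 to 12 reads per library in the case of Timp1. Timp2, the most abundant, had 104 ± 17.7 and 110 ± 14.8 (SD, n = 3 each).

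**Figure D5:**
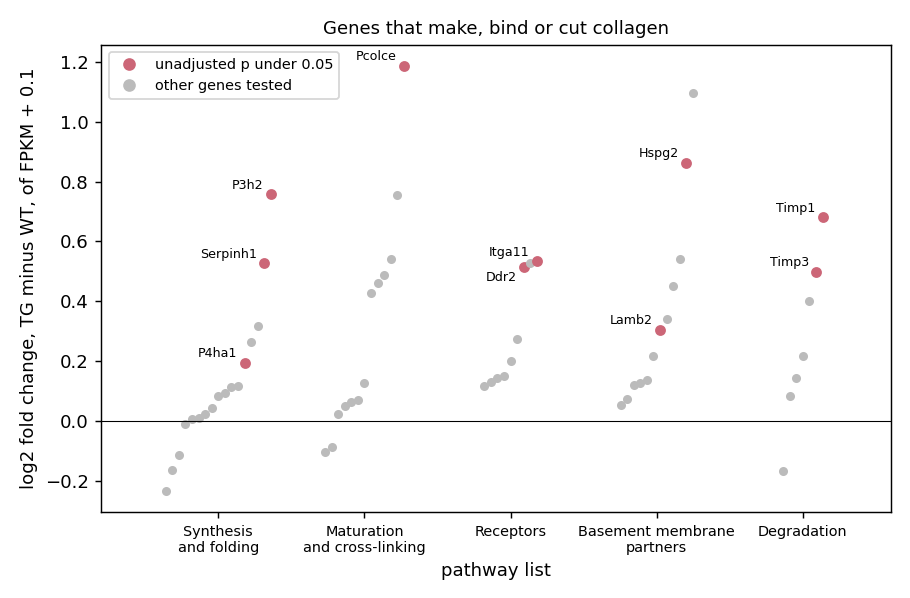
Log2 fold change (TG minus WT) of FPKM + 0.1 on the y axis for each of the 58 tested genes of 5 pathway lists, with the 10 genes at an unadjusted p under 0.05 in red and named. All 10 lie above 0, from 0.20 for P4ha1 to 1.19 for Pcolce.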

How the data were processed

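Hippocampal RNA of 3 WT and 3 TG mice was sequenced. Per the labels, the genome build was GRCm38 (mm10); the study's methods name HTSeq for read numbers, and the aligner is not given in the sources used here. The authors computed the deposited FPKM from read number and gene length, 1 column per library. Reads were recovered from FPKM and gene length, and 100% of values came out whole (tolerance 0.05 reads). Coordinates of all 44 collagens matched GENCODE M21.

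Groups were compared with limma 3.58.1 in R 4.3.3 (lmFit, eBayes with a trend) on log2(FPKM + 0.1), over the 20952 genes whose FPKM averaged 0.1 or more, with Benjamini-Hochberg adjustment over all of them and no covariate. Fold changes on this scale understate those of low genes. The labels do not name separate litters, so p-values measure the spread between these libraries. The step from FPKM to calls was tested on simulated data.

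The members, lists and rules were chosen with earlier results of these data known. Per-library values were given for collagens with an unadjusted p under 0.05, for the most abundant gene, the smallest p and the largest difference of each class, and for their partner chains. Other genes given by library were chosen after their values were seen. In the pathway lists, genes with an unadjusted p under 0.05 and the most abundant gene were named. Alternatives were other pseudocounts (0.01 and 1), filters, quantile normalization, no variance trend, limma-voom on recovered reads, a replicate block, each library left out, and 2 marker scores as covariates. TG3 alone against WT was added later. Same-numbered libraries did not deviate together (correlations 0.0125, 0.0434 and 0.0031), so the numbers were not used as pairs. Promoter sequences came from a table of RefSeq promoters (GRCm38.p6), in which 35 of 44 collagens were matched. Protein sequences were not used here. Python 3.11.15 and matplotlib 3.10.9 were used for figures.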

Additional observations from a re-analysis of the deposited data

How the results depend on the processing

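No collagen had an adjusted p under 0.05 and none was lower at an unadjusted p under 0.05 in any alternative run. Over all genes, 656 were higher at an unadjusted p under 0.05 in the reported fit. That number was 623 with a pseudocount of 1, 601 with quantile normalization, 813 with voom, 327 with the choroid plexus score, 414 with the meningeal fibroblast score and 440 to 769 with 1 library left out. The number of collagens higher was 2 in the reported fit, 1 with a pseudocount of 1 and with quantile normalization, 6 with voom on recovered reads, 0 with the choroid plexus score and with the meningeal fibroblast score, and 0 to 6 with 1 library left out (6 without TG3, 3 without WT1, 1 without TG1, 0 without WT2, WT3 or TG2). With the replicate number as a block it was 3 (Col8a1, Col8a2 and Col9a3), but the numbers are not stated to pair the mice. The median log2 fold change of the basement membrane class was 0.30, and 0.11 with a pseudocount of 1, 0.027 with a minimum mean FPKM of 1, 0.013 with the choroid plexus score, 0.12 with the fibroblast score, 0.057 with TG3 alone and 0.096 (without WT3) to 0.51 (without WT1) with 1 library left out. The fibrillar median ran from -0.08 without WT3 to 0.26 without WT2, so its sign did not hold. The number of pathway genes was 10, and 6 with no filter and with a minimum mean FPKM of 1, 5 with the fibroblast score, 0 with the choroid plexus score, and 4 to 14 with 1 library left out.

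These log2 fold changes changed sign. With quantile normalization, Col4a1 was -0.0017, Col9a2 -0.0083 and Col25a1 -0.0038. With the choroid plexus score, Col11a2 was 0.078, Col4a3 -0.0067, Col9a3 -0.084, Col8a2 -0.27 and Col25a1 -0.037. With the fibroblast score, Col1a1 was -0.20, Col1a2 -0.019, Col4a1 -0.0026, Col4a2 0.019, Col9a2 -0.27 and Col25a1 -0.054. With TG3 alone, Col11a2 was 0.092, Col9a3 -0.020, Col8a2 -0.21 and Col25a1 -0.10. With 1 library left out, Col1a1 ran from -0.13 to 0.60, Col11a2 from -0.20 to 0.065, Col4a1 from -0.040 to 0.12, Col4a2 from -0.18 to 0.065, Col9a2 from -0.17 to 0.30 and Col25a1 from -0.10 to 0.078. The cause was not tested. Values that kept their sign with 1 library left out ran from 1.64 to 3.51 for Col8a1, 0.87 to 2.55 for Col8a2, 0.79 to 2.24 for Col9a3, 0.62 to 1.33 for Col4a4 (each lowest without TG2 and highest without TG3), 0.22 to 0.43 for Col5a1 and 0.13 (without WT3) to 0.67 (without WT1) for Col1a2. Col4a3 ran from 0.92 to 1.40 over 5 fits and was under the filter without TG2. Depth limits Col4a3, Col4a4, Col13a1 and Col14a1, which had fewer than 30 reads in each WT library, and counting intervals would cover counting error only.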

Other observations

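Proteins with a collagen-like domain that are not named collagens were read as well, from 16 genes chosen after the collagen values were seen, of which 13 were tested. Of these 13, 1 was higher at an unadjusted p under 0.05 with limma, against 3.13% of all genes tested, and none passed after adjustment. Colec12, a scavenger receptor with a collagen-like stalk that occurs on vascular cells, had an FPKM of 3.37, 1.85 and 2.48 in WT against 4.22, 3.29 and 4.47 in TG, and TG2 lay just below WT1 (limma, unadjusted p = 0.0214). The complement chains of microglia were lowest in TG1, with an FPKM of 46.8, 45.2 and 50.5 for C1qa in WT against 40.8, 55.8 and 57.4 in TG, so the groups overlapped. C1ql3, a synaptic organiser of granule cells, had 23.4, 25.5 and 24.0 in WT against 22.5, 22.7 and 21.0 in TG, and every TG library lay below every WT library, as for 5.71% of all genes tested (limma, unadjusted p = 0.0739).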
